A study of Mus musculus with 6 samples.

Results

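The NF-kB transcription factor family and its inhibitors were examined as 10 genes chosen by name, of 18630 genes with a row of their own among 21448 array rows with values. NFKB1, NFKB2, REL, RELA and RELB encode the subunits. NFKBIA, NFKBIB, NFKBIE and NFKBIZ encode members of the IkB family, and TNFAIP3 encodes the ubiquitin-editing enzyme A20. Each of the 10 had a single row, so no choice between rows was needed, and 8 of them had a mean signal above the median of all rows. Labels divide the 6 arrayed libraries into 3 of an anti-PD-1 group and 3 of a control group. All are labelled as tissue of tumours of Lewis lung carcinoma (LLC), a mouse lung tumour line that had been injected under the skin of mice as 1000000 cells in Matrigel. By the labels' protocols the animals were given 250 µg of either an isotype control IgG2a or an anti-PD-1 antibody by the intraperitoneal route every 3 days; PD-1 is a receptor that restrains T cells. The series' design text speaks instead of treated cells that had survived 7 days and of untreated control cells. Strain, age and the number of animals behind each library are not given in the sources used here, and replicates may be technical, in which case the tests measure technical spread.

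NF-kB subunits act as dimers. At rest an IkB protein covers the dimer and keeps it in the cytoplasm; after a signal the IKK kinase complex marks IkB for destruction and the dimer enters the nucleus. The canonical arm, set off by TNF, interleukin-1 or Toll-like receptors, uses chiefly RELA with the product of NFKB1, while the non-canonical arm runs through the kinase NIK and yields RELB with the product of NFKB2. NFKBIA and TNFAIP3 are themselves induced by NF-kB and shut it off again, and NFKBIZ is an atypical nuclear IkB that is induced by the pathway and helps to switch on a second set of genes. Much of this control acts on protein stability and location, which an array of RNA does not measure.

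Some features of the deposited table limit what a direction means. Its header names a mouse array, yet all 10 rows carried human Ensembl transcript accessions and 0 carried mouse ones. The rows are thus annotated as human genes, and gene names here are the human symbols of the file. Which species' RNA they measured in these mouse tumours is unsettled, and so is whether each human symbol fits a mouse gene. For all 10 genes the averages headed C in the authors' deposited table fitted a biweight mean, which gives outlying values less weight, of the anti-PD-1 signals, and those headed P one of the control signals, within 0.05 on the log2 scale; for 1, TNFAIP3, they fitted as named too. RELB, for example, had plain mean signals of 7.99 and 8.63 in control and anti-PD-1 libraries, whereas in the authors' deposited table its average headed C was 8.63 and that headed P was 8.07. If those headings are right and the signal headings wrong, each higher below is a lower. None of the 10 was among the 111 rows whose averages or SDs could not be derived from the signals, a figure that covers all 21448 rows. All directions below follow the sample labels.

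Promoter sequence is shown for 3 genes that passed the test and for TNFAIP3, which did not, because the family is known to act on its own promoters. RefSeq windows of the mouse genome (GRCm38.p6, from 250 bases before to 50 after a start) were matched by symbol for 7 of the 10 genes; Nfkb1, Relb and Nfkbiz were not among them. In each line 300 bases run 5′ to 3′ on the gene's strand, and capitals mark matches to the kappa B consensus, searched on both strands, with overlapping matches merged. The consensus has 10 bases: GGG, a purine, any base, A or T, a pair of pyrimidines and CC. Nfkb2 had 3 windows, each with a match, though 2 of them overlapped and shared a match. Tnfaip3 had 2 windows, of which 1 held none. The window with the most matches, overlapping ones counted apart, is printed for each.
Nfkb2, chr19:46304487-46304786, plus strand: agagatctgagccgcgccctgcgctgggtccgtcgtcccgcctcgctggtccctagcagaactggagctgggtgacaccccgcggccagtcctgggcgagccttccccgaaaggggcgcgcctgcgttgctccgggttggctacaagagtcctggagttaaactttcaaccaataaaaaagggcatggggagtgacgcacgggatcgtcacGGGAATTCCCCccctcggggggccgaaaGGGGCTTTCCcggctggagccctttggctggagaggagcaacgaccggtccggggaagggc
Rel, chr11:23770920-23771219, minus strand: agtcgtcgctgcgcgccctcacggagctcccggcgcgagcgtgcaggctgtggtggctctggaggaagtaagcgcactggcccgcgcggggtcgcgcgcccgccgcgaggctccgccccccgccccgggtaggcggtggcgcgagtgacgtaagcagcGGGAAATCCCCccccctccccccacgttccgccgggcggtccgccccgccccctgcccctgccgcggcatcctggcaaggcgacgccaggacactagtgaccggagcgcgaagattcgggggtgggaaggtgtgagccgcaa
Nfkbia, chr12:55492598-55492897, minus strand: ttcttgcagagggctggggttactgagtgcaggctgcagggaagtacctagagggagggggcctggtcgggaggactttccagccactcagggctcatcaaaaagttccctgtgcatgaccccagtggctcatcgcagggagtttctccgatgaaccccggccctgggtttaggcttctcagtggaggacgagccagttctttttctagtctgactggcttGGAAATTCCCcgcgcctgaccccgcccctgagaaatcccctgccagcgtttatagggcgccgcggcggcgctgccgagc
Tnfaip3, chr10:19015361-19015660, minus strand: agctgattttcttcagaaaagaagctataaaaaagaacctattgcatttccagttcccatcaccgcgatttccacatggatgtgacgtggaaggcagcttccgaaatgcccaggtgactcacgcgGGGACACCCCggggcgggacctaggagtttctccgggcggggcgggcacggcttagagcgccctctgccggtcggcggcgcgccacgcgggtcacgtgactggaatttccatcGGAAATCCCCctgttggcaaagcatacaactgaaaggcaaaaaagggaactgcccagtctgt
The consensus was found in 4.51% of all 32851 such windows and in at least 1 window of 5.14% of the 27025 genes with one. It was found for 5 of the 7 family members with a window, Nfkb2, Rel, Nfkbia, Nfkbie and Tnfaip3, and not in the windows of Rela and Nfkbib. A match is a run of letters and no evidence that a factor sits there, and since the rows carry human accessions these mouse windows may belong to other species' copies of the measured genes. Nfkb2 and Rel, whose rows were higher, Nfkbia, which was lower, and Tnfaip3, which did not pass, each held a match in at least 1 window.

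By sample label, 4 of the 10 genes were higher in anti-PD-1 libraries, 1 was lower and 5 did not pass an adjusted p of 0.05 in limma. Of all rows, 29.8% were called, 14.7% higher and 15.1% lower. RELB, REL and NFKB2 rose among the subunits, NFKBIZ rose and NFKBIA fell among the IkB genes. The changes were small: the 10 differences ran from -0.47 to 0.68 on the log2 scale, with a median of 0.09 (0.01 over all rows) and a median absolute size of 0.38 (0.24 over all rows). A difference of 0.87 in size would have been needed to lie among the top 10% of rows, and no member reached it. With median centring of the arrays the split was 3 higher and 2 lower. Groups did not overlap for 6 of the 10, against 43.5% of all rows (21.7% with the anti-PD-1 libraries above, 21.9% with them below). The exact permutation test cannot go below 0.1 with 3 libraries against 3, and it gave that value, 2-sided, for each of these 6.

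**Figure D1:**
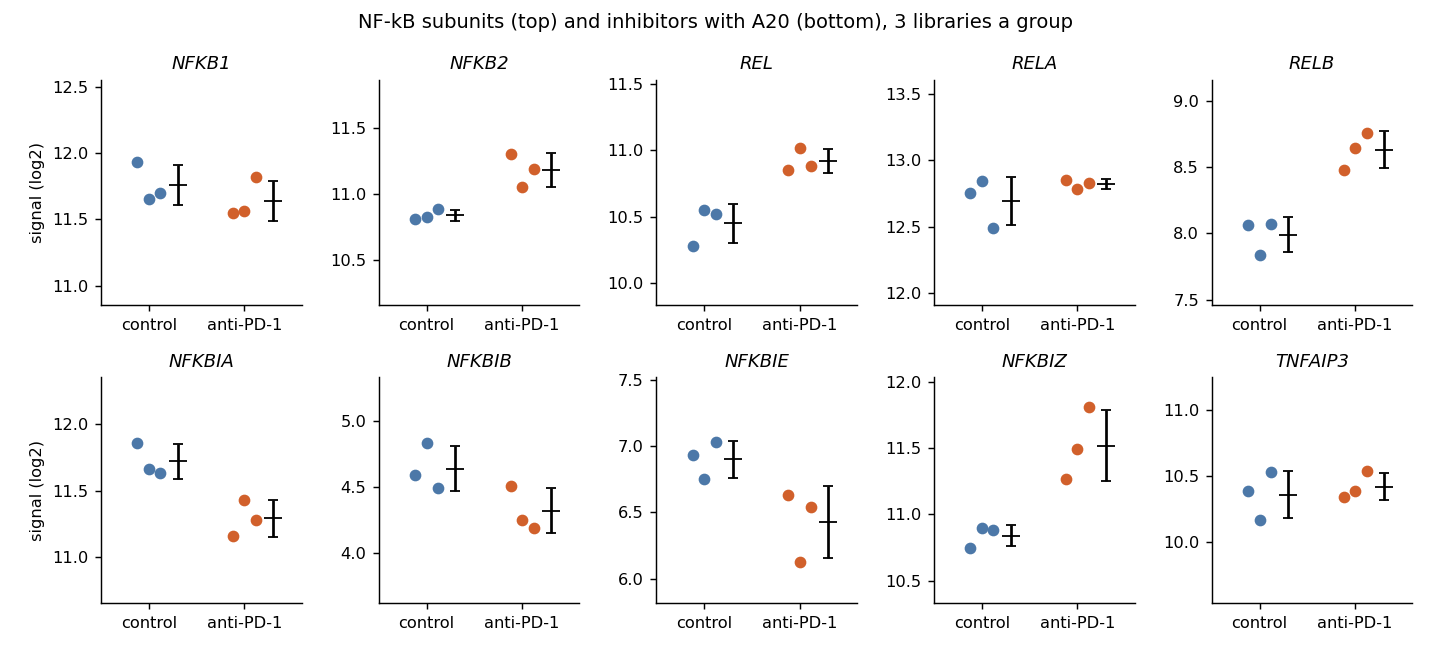
Log2 signals of the 10 genes in each library (points, 3 control and 3 anti-PD-1), with group means and SDs beside them; each panel spans the same height but has its own position on the axis. The groups are apart in NFKB2, REL, RELB, NFKBIA, NFKBIE and NFKBIZ and overlap in the other 4.

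RELB, the subunit of the non-canonical arm, changed most among the subunits. Its log2 signals were 8.06, 7.84 and 8.07 in the control libraries and 8.48, 8.64 and 8.76 in the anti-PD-1 libraries. All anti-PD-1 libraries lay above all control libraries, and the means of 7.99 ± 0.13 and 8.63 ± 0.14 (SD, n = 3 each) differed by 0.64 ± 0.11 (SE), or 1.55-fold (limma adjusted p = 0.0057). The call held without any 1 library, with adjusted p from 0.00961 to 0.0239. The file places RELB on chromosome 19 from 45001430 to 45038198; here and below the build of such positions is unsettled, since the header names mm10 while the chromosomes are those of the human genes.

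NFKB2, whose product pairs with RELB after partial digestion, also rose, by less. Its signals were 10.81, 10.83 and 10.89 in control libraries against 11.30, 11.05 and 11.19 in anti-PD-1 libraries. The groups were apart, the control libraries lying within an SD of 0.04, and the difference was 0.34 ± 0.10 (limma adjusted p = 0.0374), or 1.26-fold. The limma call held without anti-PD-1 replicate 2 (0.40, adjusted p = 0.0381). It was lost without control replicate 1 (0.32, adjusted p = 0.0914), 2 (0.33, adjusted p = 0.0901) or 3 (0.36, adjusted p = 0.0721), and without anti-PD-1 replicate 1 (a difference of 0.28, with adjusted p = 0.11) or anti-PD-1 replicate 3 (0.33 and 0.0983). Median centring of the arrays, which lowers every difference by 0.05, also ended it (0.29, adjusted p = 0.0648). The file places NFKB2 on chromosome 10 from 102394110 to 102402529.

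REL, the subunit best known from lymphocytes, had signals of 10.28, 10.55 and 10.52 in control libraries and 10.85, 11.02 and 10.88 in anti-PD-1 libraries. The lowest anti-PD-1 library stood above the highest control library, and REL rose by 0.47 ± 0.11, or 1.38-fold (limma adjusted p = 0.017). Without anti-PD-1 replicate 2 the difference was 0.42 and no longer passed (adjusted p = 0.0617). The file places REL on chromosome 2 from 60881495 to 60931610.

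The canonical pair did not pass. RELA, the main transcription-activating subunit, had signals of 12.75, 12.84 and 12.49 in control libraries and 12.85, 12.78 and 12.83 in anti-PD-1 libraries, with a difference of 0.13 and a 95% interval from -0.14 to 0.39 (limma adjusted p = 0.464). NFKB1, the precursor of its usual partner, had 11.93, 11.65 and 11.70 against 11.55, 11.56 and 11.82, a difference of -0.12 with an interval from -0.40 to 0.17 (limma adjusted p = 0.539). Both intervals include 0 and leave room for changes of the size measured for NFKB2 in RELA, and for NFKB1 for a fall of up to 0.40. Whether RELB and NFKB2 differed from RELA and NFKB1 in their response was not tested.

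Among the inhibitors NFKBIA, the IkB that most directly restrains RELA and a target of it, was the 1 gene that fell. Its signals were 11.86, 11.66 and 11.63 in control libraries and 11.16, 11.43 and 11.28 in anti-PD-1 libraries. Each anti-PD-1 library was below each control library, and the means of 11.72 ± 0.13 and 11.29 ± 0.14 (SD, n = 3 each) differed by -0.43 ± 0.11 (limma adjusted p = 0.027), that is 1.34-fold. The call was lost without control replicate 1 (-0.35, adjusted p = 0.0733) or 2 (-0.45, adjusted p = 0.0529) and without anti-PD-1 replicate 1 (a difference of -0.36, with adjusted p = 0.0844) or anti-PD-1 replicate 3 (-0.42 and 0.0755). The file places NFKBIA on chromosome 14 from 35401510 to 35404754.

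NFKBIE and NFKBIB encode 2 further IkB proteins of the cytoplasm, and neither passed. NFKBIE had signals of 6.93, 6.75 and 7.03 in control libraries and 6.63, 6.13 and 6.54 in anti-PD-1 libraries. Its groups did not overlap, and anti-PD-1 replicate 2 was the lowest library. The difference of -0.47 ± 0.15 missed the threshold (limma adjusted p = 0.0593). It missed it without any 1 library too (adjusted p from 0.0534 to 0.158), and without anti-PD-1 replicate 2 it was -0.32 (adjusted p = 0.126). It passed after quantile normalization (-0.54, adjusted p = 0.0372), after median centring (-0.52, adjusted p = 0.0445) and with dim rows left out (-0.47, adjusted p = 0.0401). NFKBIB had 4.59, 4.83 and 4.49 against 4.51, 4.25 and 4.19, values within the lowest 25% of rows, where signals lie below 5.08. Its groups overlapped, and the difference was -0.32 with an interval from -0.63 to -0.01 (limma adjusted p = 0.12).

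NFKBIZ, the atypical nuclear IkB, had the largest difference of the 10. Its signals were 10.75, 10.90 and 10.88 in control libraries and 11.27, 11.49 and 11.81 in anti-PD-1 libraries. The control libraries lay close together (SD 0.08), the anti-PD-1 libraries less so (SD 0.27), and the groups did not overlap. NFKBIZ rose by 0.68 ± 0.15, or 1.6-fold (limma adjusted p = 0.0126), and the call held without any 1 library, with adjusted p from 0.00881 to 0.0446. The file places NFKBIZ on chromosome 3 from 101827990 to 101861025. TNFAIP3 encodes A20, an enzyme that removes and adds ubiquitin chains to end NF-kB signalling, and its RNA is widely used as a readout of canonical activity. It had signals of 10.39, 10.17 and 10.53 in control libraries and 10.34, 10.39 and 10.54 in anti-PD-1 libraries. These values interleaved, with a difference of 0.06 and an interval from -0.22 to 0.34 (limma adjusted p = 0.764).

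**Figure D2:**
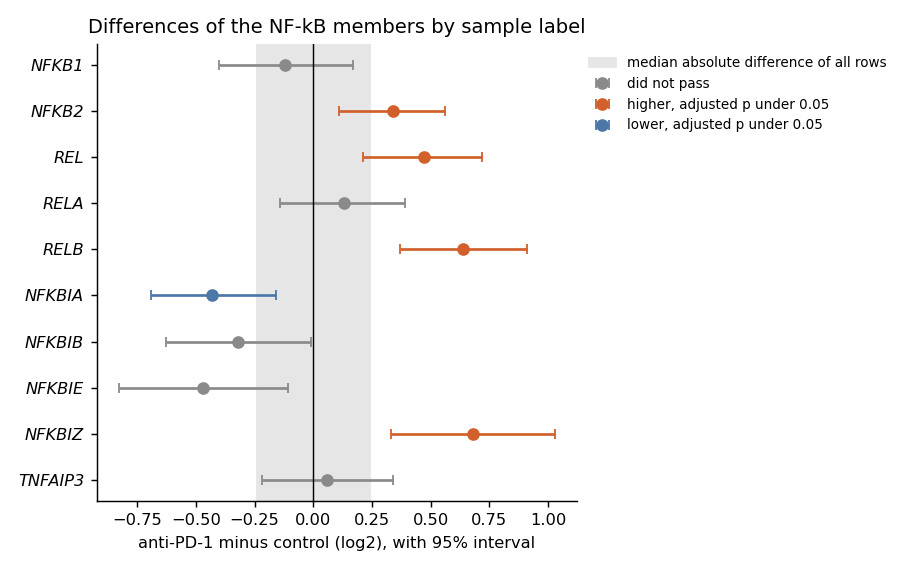
Differences of the 10 genes, anti-PD-1 minus control on the log2 scale, with 95% intervals from limma; the grey band is the median absolute difference of all rows, 0.24, on either side of 0. The points lie between -0.47 (NFKBIE) and 0.68 (NFKBIZ).

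**Figure D3:**
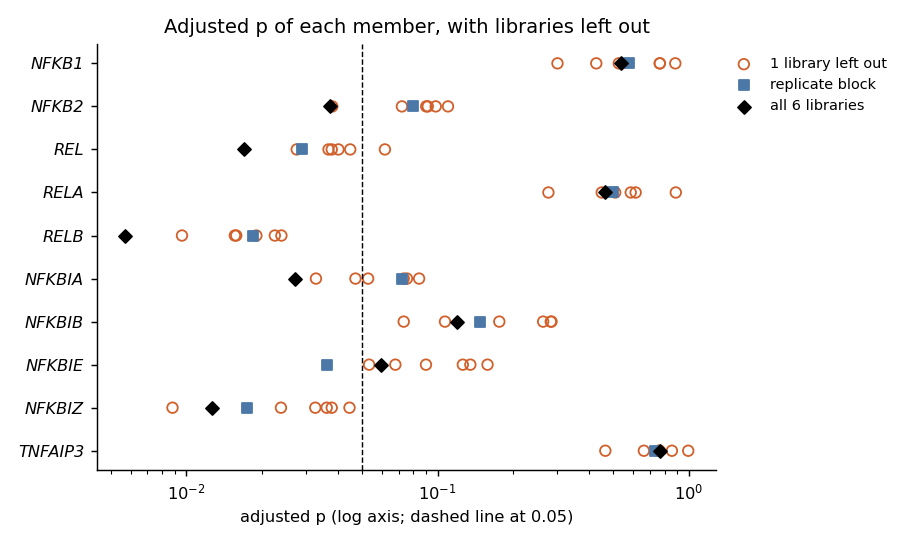
Adjusted p of each gene on a log axis with all 6 libraries (diamond), with each library left out in turn (open circles) and with the replicate number as a block (square). RELB and NFKBIZ stay below 0.05 at every point drawn, while NFKB2 and NFKBIA cross it when most libraries are left out.

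By a rule of nearest profile (smallest root mean square distance between centred log2 signals over the 6 libraries, among 18586 genes), the genes most like NFKBIZ were HCP5 (distance 0.0562), ERICH2 (0.0626) and CNGA1 (0.0737). Those most like RELB were PPP1R1C (0.0558), RHOD (0.0604) and RNF139 (0.062). With 6 libraries in 2 groups such likeness follows mainly the difference between groups, and these are descriptions.

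The other genes of the pathway were grouped by role into 7 lists with 107 measured genes, of which 26 were higher and 15 lower (38.3%, against 29.8% of all rows), with a median difference of 0.11. With median centring the split was 21 higher and 18 lower. Without each library in turn, 18 of the 26 and 8 of the 15 kept their call throughout. The count of lower genes fell from 15 to 9 without control replicate 2, to 8 without control replicate 3 and to 8 without anti-PD-1 replicate 3. BCL3, IRAK1, IRAK3, ZC3H12A, TNFRSF1B and TNFRSF13C shared their row with other symbols and were not measured here.

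**Figure D4:**
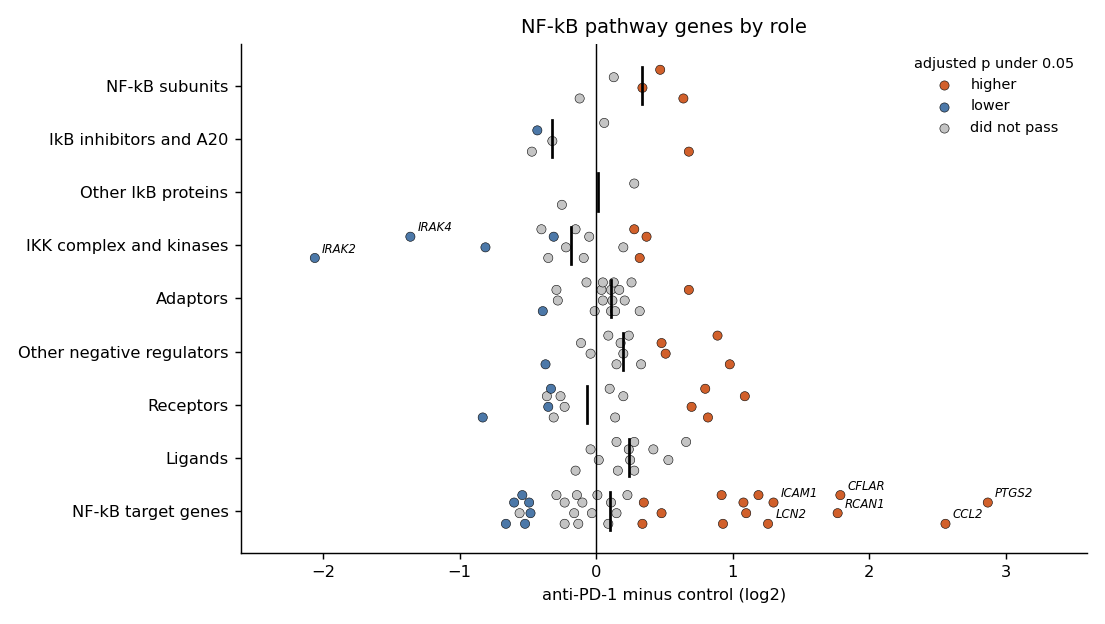
Differences of the 10 genes (upper 2 rows) and of the other pathway genes by role, anti-PD-1 minus control on the log2 scale; black ticks are list medians and the genes of largest size are named. Called genes lie on both sides of 0 in most lists, ligands and the other IkB genes have none, and the largest rises are among the target genes.

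In the list of ligands 0 of 12 genes passed at the adjusted threshold in limma, against 29.8% of all rows. The median difference was 0.24 (0.01 over all rows), and 6 of the 12 lay in the lowest 25% of rows. TNF had mean signals of 3.83 and 3.79 in control and anti-PD-1 libraries, LTA 4.74 and 4.76, and IL1A 6.01 and 6.16. TNF and LTA had the smallest differences of the list. Next came IL1A (0.15), equal in size to TNFSF14 (-0.15), which did not pass either. Larger ones, named after their values were seen, were those of IL1B (0.66, interval 0.13 to 1.18, adjusted p = 0.0662), EDA (0.53, adjusted p = 0.0939) and CD40LG (0.42, adjusted p = 0.102) in limma. Their groups overlapped, and IL1B passed in 2 of the 6 fits without 1 library (adjusted p from 0.0282 to 0.18), EDA and CD40LG in 1 each.

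Of 14 measured receptors 4 rose and 3 fell (50% called, against 29.8% of all rows), with a list median of -0.06. Both chains of the interleukin-1 receptor rose: IL1RAP, the accessory chain, from 12.24 ± 0.12 to 13.33 ± 0.04 (SD, n = 3 each; 1.09, limma adjusted p = 0.000227), and IL1R1, the binding chain, from 10.08 ± 0.17 to 10.78 ± 0.08 (0.70, limma adjusted p = 0.00366). TLR1 (0.82) and TLR3 (0.80), Toll-like receptors for bacterial lipoproteins and double-stranded RNA, rose too, though their calls were lost in some fits without 1 library (adjusted p up to 0.0646 and 0.0791). The TLR1 row, with means of 4.46 and 5.28, lay in the lowest 25% of rows. TNFRSF11A, the RANK receptor that feeds the non-canonical arm, fell by a difference of -0.83 ± 0.16 (limma adjusted p = 0.0073). CD40, another receptor of that arm, fell less (-0.35), and its call held in only 2 fits without 1 library (adjusted p up to 0.0916). That of TNFRSF12A (-0.33), named after its value was seen, held in only 1 (adjusted p up to 0.0822). LTBR, the lymphotoxin receptor, TLR2 and TLR6 did not pass, with differences of 0.10, 0.14 and 0.20. Dimmer second rows of IL1RAP (4.78 and 5.03), TLR1 and TNFRSF11A differed by 0.25, 0.38 and -0.16 and did not pass.

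The list of the IKK complex, the kinases above it and their TAB partners moved in both directions: 3 of 14 genes rose and 4 fell (50% called, against 29.8% of all rows), with a median of -0.19. The largest changes were falls of IRAK2 and IRAK4, kinases that relay interleukin-1 and Toll-like receptor signals. IRAK2 had signals of 8.38, 8.92 and 8.78 in control libraries and 6.61, 6.79 and 6.51 in anti-PD-1 libraries. The gap between the groups was far wider than the spread within them, a difference of -2.06 ± 0.16 (limma adjusted p = 0.000135). IRAK4 had 11.15, 10.90 and 11.01 against 9.76, 9.57 and 9.64, a difference of -1.36 ± 0.10 (limma adjusted p = 0.000127). MAP3K14, which encodes NIK, the kinase that starts the non-canonical arm, had 8.37, 8.80 and 8.28 against 7.63, 7.62 and 7.76. It was lower in every anti-PD-1 library, by a difference of -0.81 ± 0.15 (limma adjusted p = 0.00622), while RELB and NFKB2 were higher there. These 3 falls held without any 1 library. IKBKE (-0.31), RIPK1 (0.37), TAB3 (0.32, an adaptor of the kinase TAK1) and RIPK2 (0.28, named after its value was seen) passed with all libraries. IKBKE and RIPK2 lost the call in every fit without 1 library (adjusted p from 0.0508 to 0.12 and from 0.0668 to 0.144). RIPK1 kept it in only 2 such fits and TAB3 in only 1, with adjusted p up to 0.11 and 0.103. IKBKB, the main catalytic subunit of IKK, differed by -0.05 (interval -0.31 to 0.21; a second, dim row by 0.11), and TAB2 and TBK1 by -0.15 and -0.09 without passing.

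Adaptors stayed mostly below the threshold: 1 of 18 rose and 1 fell (11.1% called, against 29.8% of all rows), with a median of 0.11. TRAF6, the ubiquitin ligase downstream of IRAK kinases, rose from 9.88 ± 0.15 to 10.56 ± 0.11 (SD, n = 3 each; 0.68, limma adjusted p = 0.00419, held without any 1 library). BCL10, which links antigen receptors to IKK, fell by a difference of -0.39, a call that held in only 2 fits without 1 library (adjusted p up to 0.0701). TRAF2, MALT1 and RNF31 differed by 0.04, 0.05 and -0.01.

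Among 13 measured negative regulators beside the IkB genes and TNFAIP3, 4 rose and 1 fell (38.5% called, against 29.8% of all rows), with a median of 0.20. CYLD, a deubiquitinase that opposes IKK activation, had signals of 10.60, 10.50 and 10.30 in control libraries and 11.46, 11.42 and 11.45 in anti-PD-1 libraries. All anti-PD-1 values were above all control values, by 0.98 ± 0.10 on average (limma adjusted p = 0.000518). TANK, a TRAF-binding inhibitor, rose by 0.89 ± 0.11 (limma adjusted p = 0.00128), and TAX1BP1, a partner of A20, by 0.48 (limma adjusted p = 0.00805). TRIB3, a pseudokinase reported to bind RELA, rose by 0.51; it is also a gene of the ATF4 stress response. These 4 rises held without any 1 library. TNIP2, which binds A20, fell by a difference of -0.37, a call lost in some fits without 1 library (adjusted p up to 0.0604). ITCH, COMMD1 and PDLIM2 differed by -0.04, 0.09 and -0.11. The atypical IkB genes NFKBID (-0.25, interval -0.65 to 0.15) and NFKBIL1 (0.28, interval -0.01 to 0.56) did not pass.

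Of 34 genes known as NF-kB targets in other systems, 14 rose, 6 fell and 14 did not pass (58.8% called, against 29.8% of all rows), with a list median of 0.10. PTGS2, the inducible cyclooxygenase, had signals of 9.36, 8.65 and 8.96 in control libraries and 11.83, 12.01 and 11.73 in anti-PD-1 libraries. It showed the widest gap in the list, 2.87 ± 0.19 (limma adjusted p = 6.48e-05). RCAN1, an inhibitor of calcineurin, rose by 1.77 ± 0.09, ICAM1, a leukocyte adhesion molecule, by 1.30 ± 0.11 and LCN2, the siderophore-binding lipocalin, by 1.26 ± 0.16 (limma adjusted p from 2.66e-05 to 0.0012). CCL2, a monocyte chemokine, and CFLAR, an inhibitor of caspase-8, completed the 6 largest, at 2.56 and 1.79. The 6 that fell, named after their values were seen, were CXCL8 (-0.66), BCL2L1 (-0.60), CSF2 (-0.54), BCL2A1 (-0.52), IRF1 (-0.49) and TNFAIP2 (-0.48). The CSF2 row, with means of 5.20 and 4.66 in control and anti-PD-1 libraries, lay in the lowest 25% of rows. The calls of BCL2A1 and TNFAIP2 held in only 1 and 2 fits without 1 library (adjusted p up to 0.126 and 0.0938). CXCL1, SELE and CSF1 differed by -0.03, 0.01 and 0.09. Many of these genes answer to other factors as well, and the counts of a list chosen with results known are no independent evidence of a direction.

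Several NF-kB genes are abundant in leukocytes, so markers of other cells are given beside these results. In bulk RNA fewer cells of a type and less RNA per cell cannot be told apart. PTPRC, the pan-leukocyte marker, had signals between 5.08 and 5.78 over the 6 libraries and did not pass. Of 6 T cell markers 5 lay in the lowest 25% of rows; 0 rose and 1, CD4 (-0.46), fell, with summed linear signals of 123 to 162 in control and 128 to 143 in anti-PD-1 libraries. Of 4 B cell markers 1 fell, CD79A (-1.37), and 3 did not pass. CD79A was the brightest of the 4 (10.40 in control, 9.03 in anti-PD-1 libraries) and dominated their summed signals. These were 1154 to 1782 in control and 538 to 779 in anti-PD-1 libraries. Among 7 macrophage markers CD14 rose (1.19), CD68 fell (-1.64) and 5 did not pass. The differences of CSF1R (-0.42) and CD163 (-0.41) were below 0, that of MRC1 (0.33) above. MRC1, ADGRE1 (3.62 and 3.79 in control and anti-PD-1 libraries) and LYZ (4.48 and 4.51) lay in the lowest 25%. CD68 was the brightest of the 7 (14.40 and 12.76) and dominated the summed signals. These were 21572 to 23503 in control and 7374 to 8934 in anti-PD-1 libraries. S100A8, in the lowest 25%, was the 1 of 4 neutrophil markers that passed (0.29, a call lost in every fit without 1 library, limma adjusted p from 0.0675 to 0.138). Of dendritic cell markers 0 of 4 passed, of endothelial 0 of 5 and of fibroblast 0 of 5, against 29.8% of all rows. The rows of the fibroblast marker COL1A1 disagreed: the brighter one differed by 0.36 (limma adjusted p = 0.337), the dimmer one rose from 8.20 to 11.87 (limma adjusted p = 1.64e-05). Of 5 epithelial markers KRT8 rose (0.30, also lost in every such fit, adjusted p from 0.0625 to 0.0827) and EPCAM fell (-0.60); EPCAM, KRT8, KRT18 and KRT19 were above the median of all rows, whereas CDH1 is 1 of the 111 rows in conflict. The part of these markers in the differences of NF-kB genes was not tested.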

How the data were processed

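Gene-level log2 signals made with SST-RMA, per the file headers, were taken as deposited; Transcriptome Analysis Console is named in the submitters' processing notes, with no version given in the sources used here. The deposited table also held group averages (log2), SDs among other columns, a signed fold change used as a score, and the authors' p-value and false discovery rate. The workbook and the series value table held equal signals (largest gap 0). Library medians lay between 7.71 and 7.77; signals have 2 decimals, and the number of arrays limits the precision.

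Differences (anti-PD-1 minus control) were fitted in R 4.3.3 with limma 3.58.1 over all 21448 rows with values, group as the only term, 2-sided, with Benjamini-Hochberg adjustment at 0.05. A symbol with several rows was represented by the row of highest mean. The authors' averages were compared with a one-step biweight mean of the signals (tolerances 0.05, and 0.02 for SDs). The fit was tested on simulated data. Members and gene lists were chosen with earlier results of these data known. All 10 members were named; of each list, up to 6 called genes of largest difference and the 3 uncalled genes of smallest difference were named, all other IkB genes, and the 3 nearest profiles of NFKBIZ and RELB; exceptions are marked, and marker genes past the threshold were named beside their lists after their values were seen. Alternatives were quantile normalization, median centring, removal of dim rows, 1 row or the mean of rows per symbol, a trended robust prior, array weights, a replicate block, each library left out, the series value table and other thresholds.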

Additional observations from a re-analysis of the deposited data

How the results depend on the processing

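Of 157 values of the 10 genes under alternatives, 139 kept their direction and their side of the threshold, 13 lost a call, 4 gained one and 1 turned. RELB and NFKBIZ kept their calls in all 16. Part of this tally was fixed in advance. The series value table held equal signals and could change nothing. Each of the 10 genes had a single row, so 1 row or the mean of rows per symbol could change only the adjusted p. The turn was TNFAIP3 without control replicate 2 (-0.04), where neither value passed. Causes were not tested. NFKB2 lost its call with median centring (0.29) and a replicate block (0.34, adjusted p = 0.0798), and NFKBIA with a replicate block (-0.43, adjusted p = 0.0722). NFKBIE gained one with quantile normalization (-0.54), median centring (-0.52), rows under the 25th percentile left out (-0.47) and a replicate block (-0.47, adjusted p = 0.0363). Over all rows, libraries of 1 number did not deviate together (correlations of 0.0128, -0.0238 and 0.0134 by number). These correlations show no array-wide pairing by number, and a pairing that touches fewer genes was not tested. NFKBIB gave no value with either filter on dim rows, and NFKBIE none with rows under the median left out.

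Without each replicate in turn, the difference ranged from -0.21 to -0.03 for NFKB1, from 0.02 to 0.20 for RELA, from 0.56 to 0.71 for RELB, from -0.42 to -0.22 for NFKBIB, from -0.57 to -0.32 for NFKBIE, from 0.54 to 0.81 for NFKBIZ, from 0.28 to 0.40 for NFKB2, from -0.50 to -0.35 for NFKBIA, from 0.38 to 0.52 for REL and from -0.04 to 0.14 for TNFAIP3. Genes of the family called higher numbered 3 in each such fit (4 with all libraries), and those called lower 0 to 1. Other pathway genes called ranged from 19 to 25 higher and from 8 to 13 lower.

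The 4 higher and 1 lower genes of the family became 1 and 0 at an adjusted p under 0.01 and 2 and 0 with at least 1.5-fold, fewer by construction. The lower count was 2 with quantile normalization, median centring, rows under the 25th percentile left out or an adjusted p under 0.1. Of the other pathway genes (26 higher, 15 lower), 17 and 6 remained at an adjusted p under 0.01. A limit of at least 1.5-fold left 18 higher and 6 lower, and a replicate block 20 higher and 9 lower. Leaving out rows in conflict was chosen after seeing the data. It could change no count, because no gene of the family or of these pathway lists was among those rows. The number of arrays and the rounding to 2 decimals limit small differences.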
